A study of Mus musculus with 12 samples.

Results

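The effect of PRMT1 knockdown on gene expression was compared between day 1 and day 3 of adipogenic induction in 3T3-L1 cells, a mouse preadipocyte line that turns into fat cells in culture. For each gene, the log2 ratio of siPRMT1 to siCtrl cells at day 1 was subtracted from the same ratio at day 3. This siRNA-by-day interaction is positive where the knockdown effect was more positive at day 3 and negative where it was more negative at day 3. It was tested for every gene that passed edgeR's filter on low counts, which kept 14612 of the 39423 genes in the table and of the 26095 genes with a count. The third-highest level of a gene over the libraries, in CPM (counts scaled to a common library size), was 0.425 for LOC102633156, just inside the filter, and 0.4232 for Gm34268, just outside it.

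The 12 mRNA libraries came from 4 groups of 3: control siRNA (siCtrl) at 24 h, siRNA against PRMT1 (siPRMT1) at 24 h, and the same pair at 72 h, termed day 1 and day 3. All cells received DMI, a cocktail of dexamethasone, 3-isobutyl-1-methylxanthine and insulin, and all were transfected, so the controls carry the transfection and the cocktail too. The cells are 1 established line, and which of the study's PRMT1 siRNAs was sequenced was not given in the sources used here. Nothing in the labels says whether the 3 libraries of a group came from separate cultures, so p-values measure the spread between these libraries, which may be technical.

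PRMT1 is the main enzyme that places asymmetric dimethyl marks on arginines of histones, RNA-binding proteins and signalling proteins. During adipogenesis, a preadipocyte first answers the hormone cocktail and divides, then shuts down its fibroblast programme of matrix genes while C/EBP and PPARγ factors switch on the genes of lipid synthesis and storage. ATF4, a transcription factor made when protein synthesis is stressed or amino acids run short, drives genes of amino acid transport and synthesis in many cell types, and interferon-stimulated genes answer signals of viral RNA or DNA through STAT and IRF factors.

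The libraries held 15116462 to 42357137 counts on genes. In a principal component analysis of 2000 genes, the component with 88.9% of the variance separated the days: siCtrl libraries scored -49.6 to -46 at day 1 and 58.4 to 61.3 at day 3, and siPRMT1 libraries -54.4 to -53.1 and 41.4 to 42.8. Adipoq, which encodes adiponectin and marks fat cells, had a mean of 0.343 FPKM in siCtrl cells at day 1 and 216 at day 3. Markers of macrophages summed to 7.21 to 12.1 CPM in every library, with 3 of 10 markers at 0 in all, and markers of endothelium to 0.517 to 3.58 CPM with 1 of 7 at 0 in all. Markers of skeletal muscle summed to 0.752 to 2.01 CPM at day 1 and 12 to 15.2 CPM at day 3. Those of bone and cartilage summed to 171 to 330 CPM in every library. By edgeR, Cd68 was the called macrophage marker of 5 tested (interaction -0.67, adjusted p = 0.0489), a call that was lost when any of 11 of the 12 libraries was left out. Of 4 markers of bone and cartilage tested, Alpl, the tissue-nonspecific alkaline phosphatase, was called (-1.18), while none of 2 markers of endothelium and 3 of skeletal muscle was called by edgeR or DESeq2, with 0 and 1 at an unadjusted p under 0.05. That unadjusted p in edgeR was reached by 3983 (27.3%) of all genes tested. The interaction also moved with base composition: across the 12983 genes with a value (88.9%), its Spearman correlation with GC content was -0.326. The correlation was 0.169 for the day 1 effect and -0.292 for the day 3 effect. Libraries of a group differed too: siCtrl replicate 3 at day 1 had a GC trend of 0.194 where replicates 1 and 2 had -0.411 and -0.323. At day 3, siPRMT1 replicate 1 had -0.204 where replicates 2 and 3 had 0.128 and 0.214. Interaction counts of gene lists are therefore given beside those of a fit with GC and length offsets. These brought the correlation of the interaction to -0.00265, and the part of GC content in any single result was not tested.

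Prmt1 was at 145, 145 and 162 CPM in siCtrl libraries and 72.9, 64.2 and 67.9 CPM in siPRMT1 libraries at day 1. At day 3 it was at 182, 203 and 234 CPM in siCtrl and 103, 117 and 113 CPM in siPRMT1 libraries. The groups did not overlap at either day, and the siPRMT1 libraries were lower at both. The log2 effect was -1.14 (SE 0.0926) at day 1 and -0.89 (SE 0.0915) at day 3. The difference of 0.24 (95% interval -0.03 to 0.52) did not pass the test (adjusted p = 0.243, edgeR). With the GC and length offsets it was 0.36 with an adjusted p of 0.0104 in edgeR, which is under 0.05 but below the threshold on the fold, so whether the loss of Prmt1 mRNA was weaker at day 3 depended on that correction. Prmt1 lies at chr7:44976755-44986420 on the minus strand of the mm10 build.

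Calls in edgeR's quasi-likelihood test required an adjusted p (Benjamini-Hochberg) below 0.05 with a log2 value beyond 0.5 in size. The interaction was called in 1204 genes: 697 (4.77% of those tested) had a more positive effect at day 3 and 507 (3.47%) a more negative one. Knockdown itself was called at day 1 in 346 higher genes (2.37%) and 330 lower genes (2.26%), and at day 3 in 351 higher (2.4%) and 497 lower genes (3.4%), all from the same edgeR model of 12 libraries. The fit with GC and length offsets held only the 12983 genes with a GC value. It called 382 higher and 356 lower genes at day 1, and 380 higher and 444 lower at day 3. For the interaction it called 1222 genes, of which 876 were shared with the main call in the same direction. These were 72.8% of the main genes and 71.7% of those called with the offsets. Without the offsets, the same 12983 genes gave 1135 calls, of which 1104 (91.7% of the main genes) were shared. Without siCtrl replicate 3 at day 1, the counts were 902 positive and 1005 negative. The negative count was 305 without siPRMT1 replicate 3 at day 1 and 310 without siCtrl replicate 2 at day 3.

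Sorted by the signs of the 2 effects, most interaction-called genes lay on opposite sides of 0. The effect was below 0 at day 1 and above 0 at day 3 in 628 of the 697 positive genes, and above 0 then below 0 in 447 of the 507 negative genes. Together these are 1075 of 1204 called genes, beside 7626 of the 14612 genes tested with opposite signs. In 518 of the 1075 called genes the siCtrl and siPRMT1 libraries did not overlap at either day and lay on opposite sides, as they did in 868 (5.94%) of all genes tested. Of the genes counted as lower at both days, 26 had no count at day 1 and so an effect of exactly 0, and none of these was called. The remaining 129 called genes kept the sign of the effect: 56 were higher at both days, of which 32 had the larger effect at day 3, and 73 were lower at both, of which 36 had the larger effect at day 3. An opposite sign is favoured among genes picked for a large difference, since the interaction is computed from the same 2 effects, so these counts describe the called genes and test nothing.

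**Figure D1:**
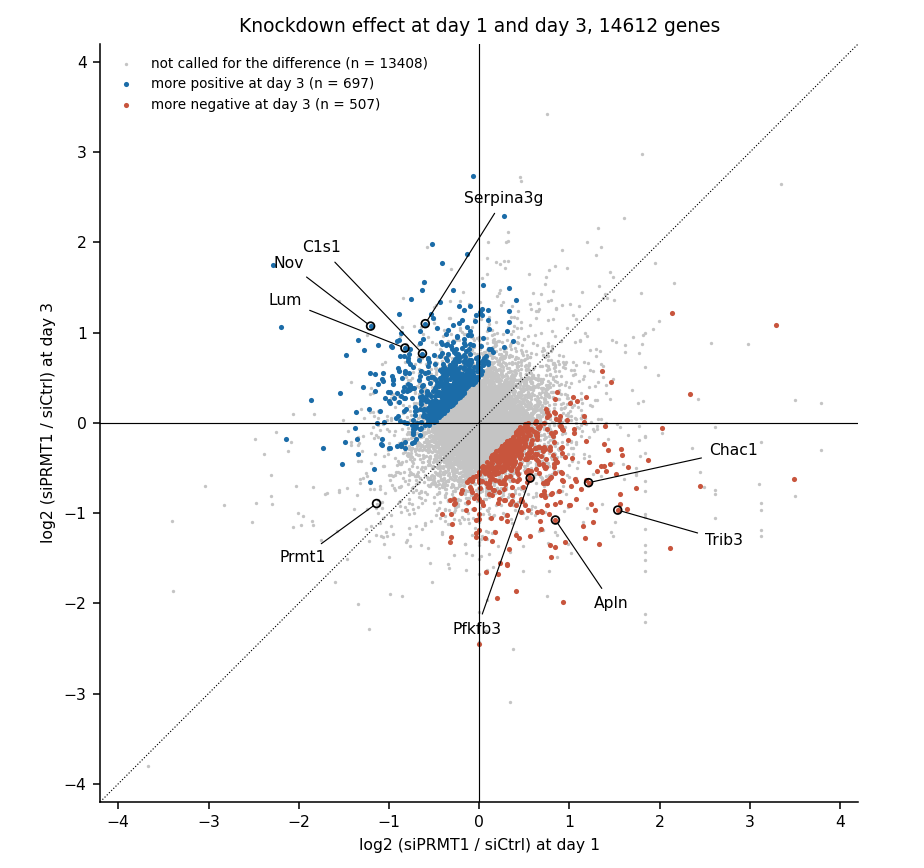
Knockdown effect of each of the 14612 genes tested at day 1 (horizontal axis, log2 of siPRMT1 over siCtrl) and at day 3 (vertical axis, the same ratio). Blue points are the 697 genes with a more positive and red points the 507 with a more negative effect at day 3, the dotted line marks equal effects, and the circled genes are Prmt1, which lies near that line, and 8 genes called at both days in opposite directions.

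The overlap of the calls at single days gives another view of the same genes. Both days called 38 genes higher and 49 genes lower, and 2 of each were called for the interaction. Another 27 genes were called higher at day 1 and lower at day 3, and 24 lower at day 1 and higher at day 3, and all 51 were called for the interaction. Of the 1248 genes called at exactly 1 day, 592 (47.4%) were called for the interaction, so for the other 656 a call at 1 day alone did not show a difference between the days. Conversely, 557 interaction-called genes had no call at either day. Among the 346 genes called higher at day 1, 159 were below 0 at day 3, and among the 330 called lower at day 1, 144 were above 0 at day 3.

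Trib3, which encodes a pseudokinase that ATF4 induces and that restrains AKT signalling, had the smallest interaction p of all genes tested. It was at 31.0, 31.5 and 38.2 CPM in siCtrl and 90.5, 99.3 and 101 CPM in siPRMT1 libraries at day 1. At day 3 it was at 84.5, 87.9 and 83.2 CPM in siCtrl and 42.1, 41.6 and 47.0 CPM in siPRMT1 libraries. The order of the groups turned over between the days with no overlap at either. The log2 effect went from 1.53 (SE 0.0890) to -0.97 (SE 0.0879), a difference of -2.50 (95% interval -2.77 to -2.23, adjusted p = 6.21e-08, edgeR). In siCtrl cells Trib3 rose from day 1 to day 3 (log2 1.35) and in siPRMT1 cells it fell (-1.16). Chac1, which encodes an enzyme that breaks down glutathione and is another ATF4 target, was at 12.7, 11.2 and 14.8 CPM in siCtrl and 28.0, 30.9 and 30.6 CPM in siPRMT1 libraries at day 1. It was at 27.7, 28.9 and 28.2 CPM in siCtrl and 17.5, 18.6 and 17.5 CPM in siPRMT1 libraries at day 3. The same exchange of order gave a difference of -1.88 (SE 0.135, adjusted p = 3.33e-06, edgeR).

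Apln, which encodes the vascular peptide apelin, and Pfkfb3, which encodes the enzyme that makes an activator of glycolysis, followed the same order. Apln was at 5.96, 6.98 and 8.63 CPM in siCtrl and 12.2, 12.4 and 13.5 CPM in siPRMT1 libraries at day 1, and at 78.4, 84.7 and 83.5 CPM against 39.7, 36.0 and 41.2 CPM at day 3. It rose over time in both, by 3.54 on the log2 scale in siCtrl and 1.62 in siPRMT1 cells, and the interaction was -1.92 (SE 0.156, adjusted p = 4.16e-06, edgeR). Pfkfb3 was at 11.9, 10.8 and 11.7 CPM against 16.1, 17.0 and 17.8 CPM at day 1, and at 48.9, 46.8 and 51.1 CPM against 32.1, 31.9 and 32.1 CPM at day 3. Its siPRMT1 libraries began above and ended below the controls, with an interaction of -1.18 (SE 0.110, adjusted p = 1.58e-05, edgeR).

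C1s1, Serpina3g, Nov and Lum went the other way. C1s1 encodes a protease of the complement cascade and was at 75.0, 67.6 and 75.6 CPM in siCtrl and 48.8, 45.4 and 46.9 CPM in siPRMT1 libraries at day 1, then at 21.0, 21.5 and 21.8 CPM against 36.1, 38.4 and 34.95 CPM at day 3. The level fell over time in siCtrl cells (log2 -1.76), the course of -0.37 in siPRMT1 cells was not called, and the interaction was 1.40 (SE 0.106, adjusted p = 3.33e-06, edgeR). Nov, which encodes the matricellular protein CCN3, was at 6.65, 6.25 and 6.598 CPM against 2.55, 2.80 and 3.11 CPM at day 1, and at 6.15, 5.64 and 7.77 CPM against 13.5, 15.1 and 12.9 CPM at day 3. Its level in siCtrl cells was about equal at both days (course 0.02 on the log2 scale), while siPRMT1 cells began below it and ended above it (course 2.29). Lum, which encodes the proteoglycan lumican, was at 29.3, 27.6 and 25.5 CPM against 15.04, 15.96 and 15.59 CPM at day 1, and at 12.4, 9.88 and 10.4 CPM against 20.1, 19.7 and 18.3 CPM at day 3, an interaction of 1.65 (SE 0.137). All 4 genes were below the controls at day 1 and above them at day 3. Serpina3g, a serine protease inhibitor, was at 13.1, 12.2 and 14.2 CPM against 8.96, 7.96 and 9.17 CPM at day 1 and at 12.8, 11.7 and 13.3 CPM against 26.1, 28.1 and 26.8 CPM at day 3, an interaction of 1.70. C1s1 and Serpina3g belong to families with near-identical members, and how reads on several copies were counted is not given in the sources used here, so their levels are uncertain. On mm10 the 8 genes lie at chr2:152337425-152344060 (Trib3, minus strand), chr2:119351242-119354326 (Chac1, plus), chrX:48025146-48034852 (Apln, minus), chr2:11471430-11554071 (Pfkfb3, minus), chr6:124530344-124542392 (C1s1, minus), chr12:104236242-104241934 (Serpina3g, plus), chr15:54745928-54753762 (Nov, plus) and chr10:97565501-97572703 (Lum, plus).

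**Figure D2:**
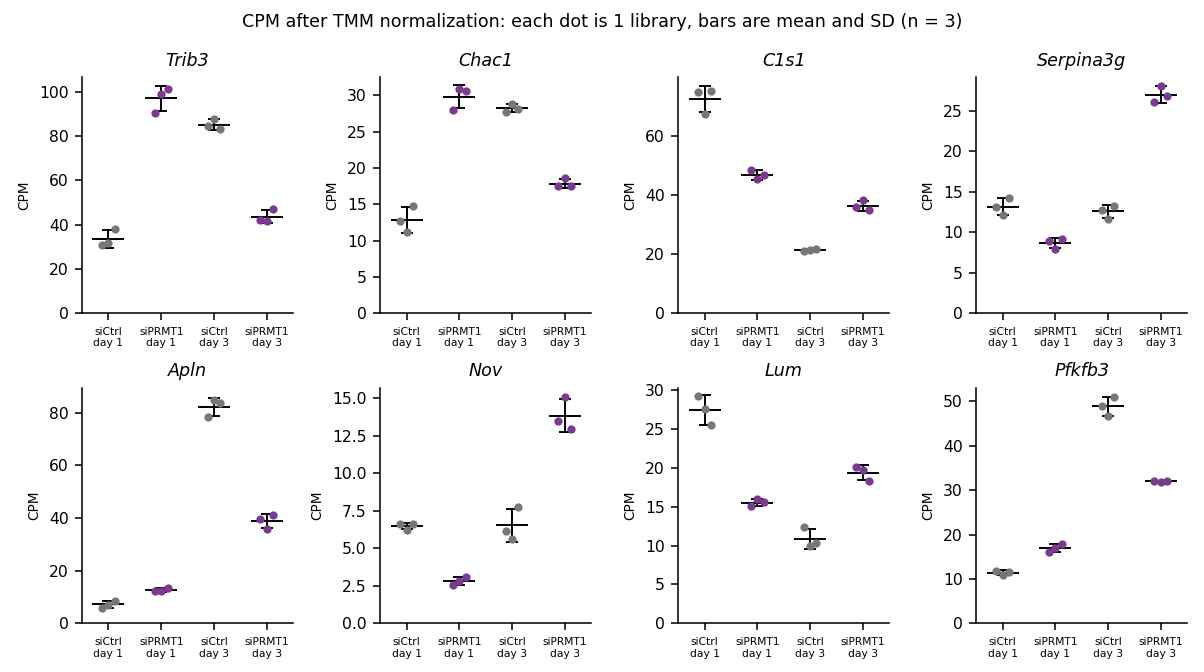
CPM after TMM normalization (vertical axis, from 0) of the 8 genes with the smallest interaction p among those called at both days in opposite directions, for siCtrl (grey) and siPRMT1 (purple) at day 1 and day 3. Each dot is 1 library and the bars are the mean and SD of 3; in Trib3, for example, the siPRMT1 dots lie above siCtrl at day 1 and below it at day 3.

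Each cell state's own course stands beside these differences. The interaction equals the siPRMT1 course minus the siCtrl course, so genes picked for a positive interaction tend by construction to have a lower siCtrl course, and these counts describe them and test nothing. Of the 697 genes with a positive interaction, 444 fell and 56 rose from day 1 to day 3 in siCtrl cells (median log2 -0.75), whereas 174 fell and 153 rose in siPRMT1 cells (median -0.01). Of the 507 genes with a negative interaction, 365 rose and 16 fell in siCtrl cells (median 0.93), and 159 rose and 110 fell in siPRMT1 cells (median 0.11). Over all genes tested, 22.9% rose and 20.9% fell in siCtrl cells, and 19.2% rose and 16.6% fell in siPRMT1 cells. In bulk RNA, fewer cells of a type and less RNA per cell cannot be told apart.

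The targets of ATF4 were the list with the most interaction calls, 59% of its members tested beside 8.24% of all genes tested. Of 39 members tested, 23 were more negative at day 3 and 0 more positive, by edgeR and by DESeq2 alike. At an unadjusted p under 0.05 in edgeR, 33 were negative and 1 positive, beside 27.3% of all genes tested in both directions together. The median interaction was -0.67, beside 0.02 over all genes tested. At day 1, 16 members were called higher in siPRMT1 cells and 0 lower, and at day 3 0 were called higher and 6 lower. Over all genes tested, 2.37% were called higher and 2.26% lower at day 1, and 2.4% and 3.4% at day 3. Called or not, 33 of the 39 had a positive effect at day 1 and a negative one at day 3, beside 24.4% of all genes tested. The median effect went from 0.38 to -0.23. With the GC and length offsets, 26 were called more negative and 0 more positive.

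Among the amino acid transporters, Slc6a9 (glycine) was at 18.01, 19.6 and 20.8 CPM in siCtrl and 48.8, 48.1 and 54.7 CPM in siPRMT1 libraries at day 1, and at 25.3, 25.4 and 25.8 CPM against 19.95, 23.19 and 21.95 CPM at day 3. The effect of 1.38 at day 1 passed the test and the one of -0.23 at day 3 did not, and the difference was -1.61 (SE 0.124, adjusted p = 3.33e-06, edgeR). Slc7a5, which carries large neutral amino acids, had effects of 0.92 and -0.34 (interaction -1.25), and Slc7a1, for cationic amino acids, 0.72 and -0.26 (interaction -0.98). Slc38a2, a glutamine transporter, did not pass (interaction -0.08). Among enzymes, those of serine and one-carbon metabolism Psph (-0.93), Shmt2 (-0.89) and Aldh1l2 (-1.03) were called, as were Gpt2 (-1.12), which makes alanine, and the proline enzymes Aldh18a1 (-0.82) and Pycr1 (-0.78). Phgdh (-0.42), Psat1 (-0.48) and Asns (-0.46) passed the adjusted p but not the threshold on the fold.

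Among the transcription factors and stress genes, Ddit3, which encodes CHOP, was at 36.5, 38.1 and 39.3 CPM against 58.0, 60.0 and 61.3 CPM at day 1 and at 43.7, 42.8 and 48.3 CPM against 37.5, 38.4 and 36.3 CPM at day 3. The siPRMT1 libraries lay above siCtrl at day 1 and below it at day 3, with an interaction of -0.92 (SE 0.103, adjusted p = 5.77e-05, edgeR). Atf5 (-0.76), Ppp1r15a (-1.39), which encodes a phosphatase subunit that restores translation, Nupr1 (-1.31) and Ddit4 (-0.92), an inhibitor of mTORC1, were called in the same direction. Atf4 mRNA itself was at 339, 337 and 395 CPM against 393, 406 and 401 CPM at day 1 and at 329, 332 and 347 CPM against 323, 296 and 298 CPM at day 3. Its interaction of -0.30 (95% interval -0.51 to -0.09) missed the threshold (adjusted p = 0.0558, edgeR); ATF4 is controlled largely at translation, which these data do not measure. Adm2, a hormone gene, had the most negative interaction of the called genes whose mean reached 1 CPM, -3.50 (SE 0.435), at levels of 0.436 to 2.91 CPM. None of the 5 tRNA synthetase genes tested (Sars, Nars, Gars, Cars and Wars) was called, with interactions of -0.48 to -0.21.

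Promoters are shown because this list is defined by a factor with a known recognition sequence. The RefSeq windows on GRCm38.p6, from 250 bases before to 50 bases after a start site, were found for 21 of the 23 called ATF4 targets and for 10395 of the 14612 genes tested. The letters TGATGNAA, a C/EBP-ATF response element, were searched on both strands. They were in a window of 6 of the 21 (28.6%), beside 2.79% of all genes with a window, 5.87% of the 358 genes with a negative interaction and 3.1% of the 484 with a positive one. Of the 11 members of the list that had a window and were not called, 4 (36.4%) held it too. The windows were chosen by their match, which is a description and not a binding site. The sequences run 5′ to 3′ on the strand of the gene with the match in capitals, which is on either strand, and for Trib3, whose match lies after the start site, 30 bases are shown.
Trib3 (chr2:152344028-152344057, minus strand): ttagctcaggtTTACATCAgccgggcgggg
Chac1 (chr2:119350992-119351241, plus strand): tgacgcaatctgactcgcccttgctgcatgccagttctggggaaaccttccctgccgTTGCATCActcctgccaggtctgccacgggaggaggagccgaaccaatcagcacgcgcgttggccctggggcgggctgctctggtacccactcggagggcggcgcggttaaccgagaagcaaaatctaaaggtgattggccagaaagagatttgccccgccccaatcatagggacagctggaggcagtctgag
Atf3 (chr1:191183334-191183583, minus strand): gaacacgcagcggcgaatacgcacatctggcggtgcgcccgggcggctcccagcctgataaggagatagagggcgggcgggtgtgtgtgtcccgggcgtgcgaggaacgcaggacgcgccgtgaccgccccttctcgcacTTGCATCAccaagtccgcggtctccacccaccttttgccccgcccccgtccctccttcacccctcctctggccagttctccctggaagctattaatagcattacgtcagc
Nupr1 (chr7:126625471-126625720, minus strand): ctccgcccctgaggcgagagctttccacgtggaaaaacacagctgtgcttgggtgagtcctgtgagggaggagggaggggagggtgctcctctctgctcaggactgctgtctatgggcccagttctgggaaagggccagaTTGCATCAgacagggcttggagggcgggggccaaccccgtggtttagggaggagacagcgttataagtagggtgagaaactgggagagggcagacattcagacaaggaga
Pck2 (chr14:55540016-55540265, plus strand): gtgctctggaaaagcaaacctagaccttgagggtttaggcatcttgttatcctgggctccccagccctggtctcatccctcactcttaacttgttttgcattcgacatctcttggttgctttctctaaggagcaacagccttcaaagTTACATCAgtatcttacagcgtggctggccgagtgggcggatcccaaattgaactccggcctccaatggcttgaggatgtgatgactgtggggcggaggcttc
Pycr1 (chr11:120643749-120643998, minus strand): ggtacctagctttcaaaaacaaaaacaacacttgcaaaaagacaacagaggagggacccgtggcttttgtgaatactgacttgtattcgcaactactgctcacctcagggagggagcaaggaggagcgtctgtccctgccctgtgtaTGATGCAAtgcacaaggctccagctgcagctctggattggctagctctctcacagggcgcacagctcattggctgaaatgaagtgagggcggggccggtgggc

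**Figure D3:**
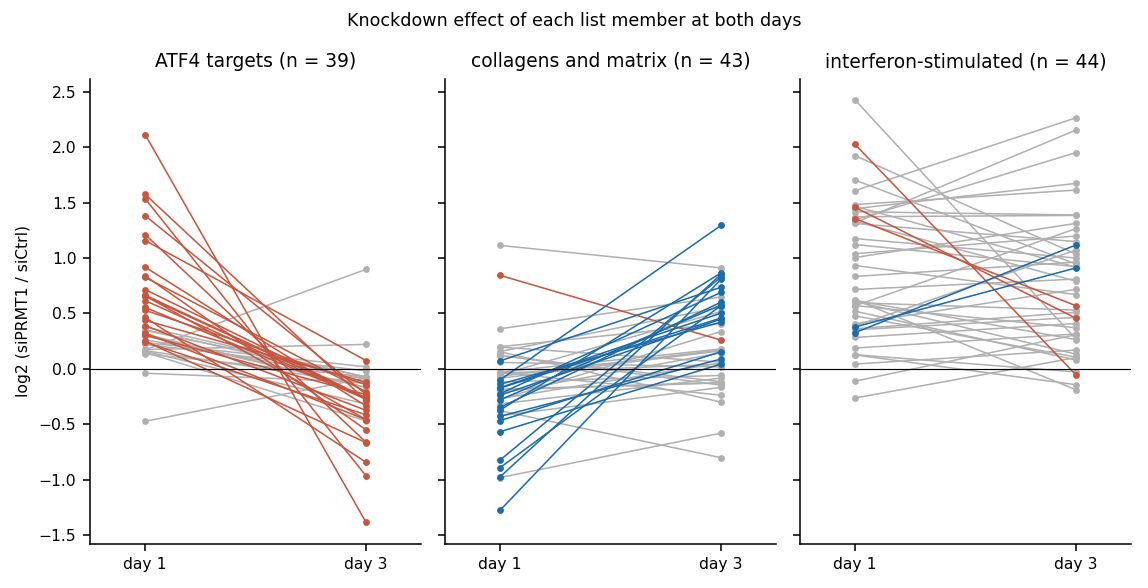
Knockdown effect (log2 of siPRMT1 over siCtrl, vertical axis) of each list member at day 1 and day 3, joined by a line, for 39 ATF4 targets, 43 collagen and matrix genes and 44 interferon-stimulated genes. Red and blue lines are members called for a more negative and a more positive effect at day 3 and grey lines the rest; red lines prevail in the ATF4 list (23), blue lines in the matrix list (17), and most lines of the interferon list are grey and above 0 at both days.

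Genes of glycolysis and the hypoxia response were called in the same direction as the ATF4 targets, 44.4% beside 8.24% of all genes tested. Of 27 tested, 12 were more negative at day 3 and 0 more positive (11 and 0 with the offsets, 12 and 0 in DESeq2, 18 and 0 at an unadjusted p under 0.05), and the median interaction was -0.43. At that unadjusted p, the share of all genes tested was 27.3% in both directions together. Knockdown calls were 3 higher and 0 lower at day 1, and 0 higher and 11 lower at day 3. The shares over all genes tested were 2.37% higher and 2.26% lower at day 1, and 2.4% and 3.4% at day 3. Ero1l, which oxidises proteins in the endoplasmic reticulum, was at 157, 151 and 121 CPM against 222, 286 and 224 CPM at day 1 and at 361, 289 and 281 CPM against 177, 143 and 142 CPM at day 3. The order turned over without overlap, and the interaction was -1.78 (SE 0.185, adjusted p = 3.78e-05, edgeR). Ndrg1 (-1.66), Slc2a1 (-1.01), the basal glucose transporter GLUT1, and Hk2 (-1.004), a hexokinase, were called too. Among enzymes of glycolysis, Gpi1 (-0.55) and Pfkl (-0.55) were called as well, whereas Gapdh (-0.28), Pgk1 (0.00), Pkm (-0.13) and Ldha (-0.19) did not pass. Enolase counts are split over several names: Eno1 was called (-1.18) at a mean of 3.83 CPM, while the name Eno1_1, with a mean of 330.4 CPM, was not (-0.08), so the call of Eno1 is uncertain.

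Collagens and matrix genes were mostly called the other way, 41.9% in either direction beside 8.24% of all genes tested. Of 43 tested, 17 were more positive and 1, Col7a1 (-0.58), more negative at day 3 (18 and 0 with the offsets), with a median interaction of 0.36. At day 1, 1 was called higher and 5 lower, and at day 3 14 higher and 1 lower. Dcn, which encodes the proteoglycan decorin, was at 270, 272 and 243 CPM in siCtrl and 248, 241 and 243 CPM in siPRMT1 libraries at day 1. At day 3 it was at 80.4, 71.7 and 68.5 CPM in siCtrl and 177, 196 and 168 CPM in siPRMT1 libraries. The groups overlapped at day 1 and were apart at day 3, and the interaction was 1.39 (SE 0.109, adjusted p = 3.33e-06, edgeR). Lox, whose product crosslinks collagen, was at 818, 829 and 763 CPM against 644, 640 and 579 CPM at day 1 and at 144, 128 and 124 CPM against 236, 254 and 233 CPM at day 3. Lox fell in both cell states over time (log2 -2.60 in siCtrl, -1.36 in siPRMT1), and its interaction was 1.24 (SE 0.1002).

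Other small proteoglycans, Ogn (1.83) and Aspn (1.46), were called as well, with effects of -0.97 and -0.89 at day 1 and 0.85 and 0.57 at day 3. Aspn was at 418, 385 and 236 CPM against 194, 204 and 162 CPM at day 1, with siCtrl replicate 3 lowest of the controls, and at 172, 134 and 151 CPM against 249, 234 and 197 CPM at day 3. Its groups did not overlap at either day. The proteases Mmp3 (2.08) and Mmp2 (0.95), the inhibitor Timp2 (0.91) and the fibrillar collagens Col1a2 (0.69) and Col3a1 (0.56) were more positive at day 3. Col1a1 (0.36), Col6a1 (0.23) and Sparc (0.25) were not called, nor were the basement membrane collagens Col4a1 (0.06) and Col4a2 (-0.21).

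Cell adhesion genes showed 10 positive and 2 negative calls of 43 (9 and 2 with the offsets), median 0.25. The share called was 27.9%, and 28% among the contractile genes and SRF targets below, beside 8.24% of all genes tested. Vcam1, a receptor for integrins, was at 155, 153 and 151 CPM against 136, 150 and 146 CPM at day 1 and at 41.3, 37.1 and 38.9 CPM against 79.0, 78.0 and 74.2 CPM at day 3. Its siCtrl libraries were higher at day 1 by a margin that did not pass (-0.09) and lower at day 3 (0.98), and the interaction was 1.07 (SE 0.0942, adjusted p = 8.19e-06, edgeR). Pcdh18 (0.98), a protocadherin, Cdh11 (0.77) and the laminin chain Lama2 (1.36) went with it, whereas the integrin chain Itga7 (-1.004) and Mcam (-0.67) went against it. Of 25 contractile genes and SRF targets, 6 were positive and 1 negative (of 23 with a GC value, 5 and 1, and 5 and 0 with the offsets), among the positive ones Cyr61 (0.94), Cnn2 (0.81) and Acta2 (0.73). Ptn, a growth factor outside these lists, went from 1846, 1873 and 1591 CPM against 1349, 1340 and 1255 CPM at day 1 to 298, 287 and 279 CPM against 551, 540 and 511 CPM at day 3. Its order turned over, with an interaction of 1.32 (SE 0.0943). Fstl1, which encodes a secreted glycoprotein, did likewise at 0.94 (SE 0.0732), as did Clca3a1 at 1.52 (SE 0.114), a member of a family of near-identical genes whose counts are uncertain.

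**Figure D4:**
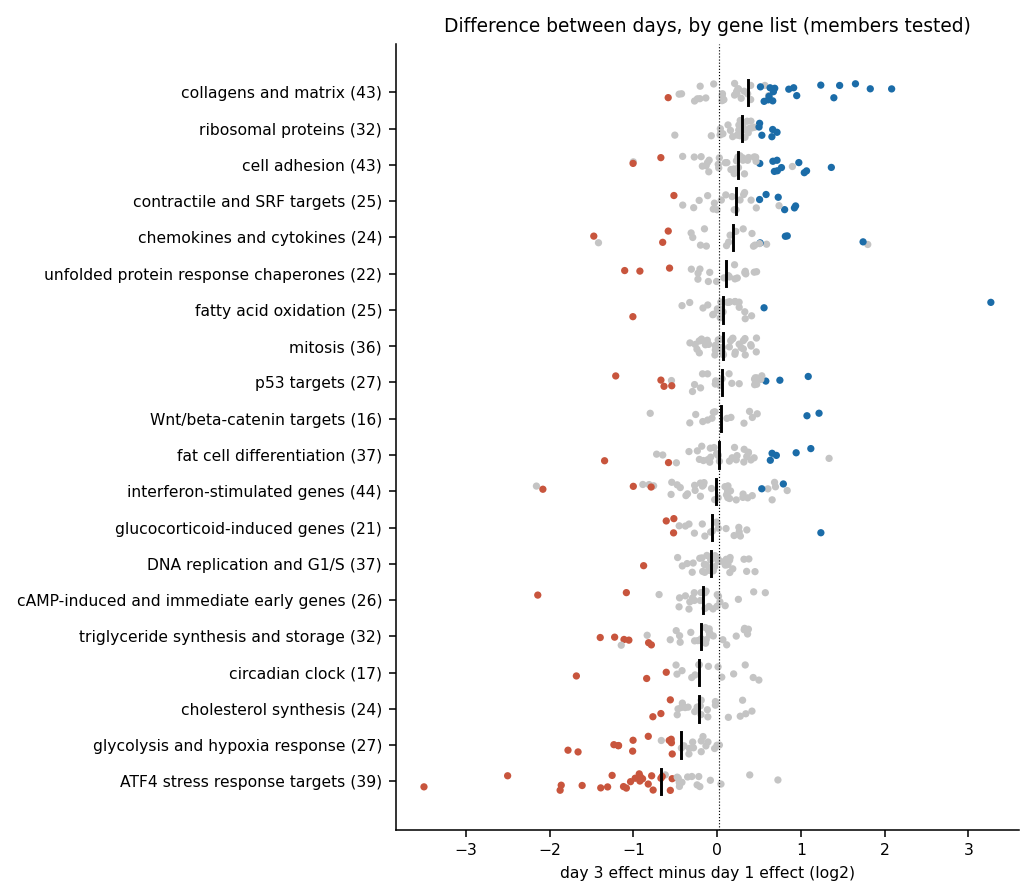
Day 3 effect minus day 1 effect (log2, horizontal axis) of every tested member of 20 gene lists, ordered by their median (black bar); the number of members tested is in brackets. Blue and red dots were called more positive and more negative at day 3 and grey dots were not called, and the dotted line is the median of all genes tested, 0.02; the medians run from 0.36 (collagens and matrix) to -0.67 (ATF4 targets).

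Ribosomal protein genes had small interactions that were mostly above 0, and 18.8% were called, beside 8.24% of all genes tested. Of 32 tested, 6 were called more positive at day 3 and 0 more negative (10 and 0 with the offsets), and 30 had an interaction above 0. Their median interaction was 0.29, beside 0.02 over all genes tested, and their median effect went from -0.21 at day 1 to 0.11 at day 3. Their calls at day 1 and at day 3 were 0 in edgeR, beside 2.26% to 3.4% of all genes tested per day and direction. For the interaction DESeq2 called 4 more positive and 0 more negative. At an unadjusted p under 0.05 in edgeR the counts were 21 and 0, beside 27.3% of all genes tested in both directions together. Rps4x, of the small subunit, had an interaction of 0.65. Rpl7, a protein of the large subunit, was at 833, 806 and 764 CPM against 600, 612 and 586 CPM at day 1 and at 531, 556 and 581 CPM against 738, 672 and 640 CPM at day 3, an interaction of 0.72 (SE 0.0903, adjusted p = 1.61e-04, edgeR). Ribosomal protein genes have many processed copies in the genome, so their counts are uncertain.

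Interferon-stimulated genes gave knockdown calls in 1 direction at both days. Of 44 tested, 25 were called higher at day 1 and 19 at day 3, 13 at both, and 0 lower, with medians of 0.78 and 0.75. Over all genes tested, 2.37% were called higher at day 1, 2.4% at day 3 and 0.26% at both, and 2.26% and 3.4% were called lower. For the interaction 2 of the 44 were positive and 3 negative (2 and 4 with the offsets), which is 11.4% beside 8.24% of all genes tested, and the median of the list was -0.01. Ifit1, which binds viral RNA, was at 11.98, 10.7 and 7.79 CPM against 22.6, 27.3 and 29.7 CPM at day 1 and at 1.22, 1.59 and 1.46 CPM against 4.07, 3.66 and 3.38 CPM at day 3. The siPRMT1 libraries lay above at both days while the level fell, and the interaction was 0.01 (adjusted p = 0.981, edgeR). Rtp4, a chaperone of receptors, was the exception with the smallest p: it was at 2.38, 1.84 and 1.84 CPM against 7.43, 8.88 and 8.97 CPM at day 1, and at 2.74, 2.65 and 3.08 CPM against 2.43, 2.58 and 3.18 CPM at day 3. Its groups were apart at day 1 and overlapped at day 3, with an interaction of -2.08 (SE 0.224, adjusted p = 4.46e-05, edgeR). Usp18 (-1.001) and Bst2 (-0.79) were also less raised at day 3, and Parp14 (0.79) and Trim30a (0.53) more.

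These genes serve as a contrast in sequence too. Of the 31 list members with a window, called or not, 18 (58.1%) held the interferon-stimulated response element GAAANNGAA on either strand. This compares with 8.47% of all genes with a window. The share was 10.6% among genes with a negative and 10.1% among those with a positive interaction. In a reduced set of windows, 22 members called higher at a day were examined, and 15 held the element. That count left out some windows that the shares include, so it is not compared with them. The 250 bases before the start site are shown for 3 members that were not called for the interaction, with the matches in capitals.
Ifit1 (chr19:34640639-34640888, plus strand): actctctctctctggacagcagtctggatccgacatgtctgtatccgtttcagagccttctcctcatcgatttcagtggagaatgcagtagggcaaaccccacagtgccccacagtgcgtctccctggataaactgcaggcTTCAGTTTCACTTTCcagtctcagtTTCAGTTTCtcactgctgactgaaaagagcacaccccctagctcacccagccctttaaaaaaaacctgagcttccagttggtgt
Irgm1 (chr11:48871421-48871670, minus strand): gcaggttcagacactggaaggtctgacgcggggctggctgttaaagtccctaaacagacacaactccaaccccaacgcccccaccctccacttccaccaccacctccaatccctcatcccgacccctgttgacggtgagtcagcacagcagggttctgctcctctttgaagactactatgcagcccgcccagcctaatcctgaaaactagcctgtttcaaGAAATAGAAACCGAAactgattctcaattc
Gbp3 (chr3:142559794-142560043, plus strand): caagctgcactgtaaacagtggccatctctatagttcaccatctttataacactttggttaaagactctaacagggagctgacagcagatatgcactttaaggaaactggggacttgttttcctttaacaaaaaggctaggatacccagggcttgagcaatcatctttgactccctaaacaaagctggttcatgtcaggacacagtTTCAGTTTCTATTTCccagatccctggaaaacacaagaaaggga

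Fat cell genes were called lower more often than higher at both days. Of 37 fat cell differentiation genes, 1 was higher and 13 were lower at day 1, 0 were higher and 11 lower at day 3, and the interaction called 5 positive and 2 negative members (7 and 0 with the offsets), 18.9% beside 8.24% of all genes tested, with a median of 0.03. Pparg, the factor that commands the fat cell programme, was at 100, 105 and 115 CPM against 71.8, 71.1 and 75.7 CPM at day 1 and at 436, 426 and 424 CPM against 339, 350 and 346 CPM at day 3. The siPRMT1 libraries lay below siCtrl at both days without overlap, the effect of -0.55 at day 1 was called and the one of -0.31 at day 3 was under the threshold on the fold, and the interaction was 0.24 (95% interval 0.05 to 0.43, adjusted p = 0.096, edgeR). Cebpa (0.44, adjusted p = 0.12), Fabp4 (0.40, adjusted p = 0.177), Adipoq (1.34, adjusted p = 0.106) and Cebpb (-0.49, adjusted p = 0.373) did not pass edgeR's test either. The intervals were wide for Adipoq (0.24 to 2.43), whose day 1 level was 0.0425 to 0.595 CPM, and for Cebpb (-1.19 to 0.22). With the offsets, Cebpa was called (0.62, adjusted p = 0.000151 in edgeR) and Pparg had an adjusted p of 0.0218 at 0.22, below the threshold on the fold. Adipoq passed with library weights and without siCtrl replicate 1 at day 1.

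Among the members called, the fatty acid binding protein Fabp5 was at 66.4, 69.1 and 69.5 CPM against 43.4, 38.8 and 41.5 CPM at day 1, and at 705, 776 and 778 CPM against 816, 676 and 656 CPM at day 3. It was lower at day 1, and the groups overlapped at day 3 (interaction 0.66, adjusted p = 0.00235, edgeR). Aoc3 (0.71), an amine oxidase of the fat cell surface, was lower at day 1 (-0.98), and its effect of -0.28 at day 3 was not called. Triglyceride genes were called the other way, with 6 of 32 negative and 0 positive (6 and 1 with the offsets, 7 and 0 in DESeq2, 12 and 2 at an unadjusted p under 0.05). The share called in edgeR was 18.8%, beside 8.24% of all genes tested, and 27.3% of all genes tested had such an unadjusted p. Scd1, a desaturase that makes oleate, was at 420, 402 and 426 CPM against 336, 338 and 340 CPM at day 1 and at 2256, 2303 and 2119 CPM against 1132, 934 and 1009 CPM at day 3. It was below the controls at both days and further below at day 3, from -0.30 to -1.12 (interaction -0.82, SE 0.0942, adjusted p = 7.8e-05, edgeR). Gpd1 (-1.40), Mgll (-1.22), Bscl2 (-1.11), G0s2 (-1.05) and Hilpda (-0.79) completed the calls. In the triglyceride list 3 members were called lower at day 1 and 17 at day 3, beside 2.26% and 3.4% of all genes tested. Of 24 cholesterol synthesis genes, 3 were negative and 0 positive in edgeR and in DESeq2 (4 and 0 with the offsets, 10 and 2 at an unadjusted p under 0.05). The share called in edgeR was 12.5%, beside the same 8.24% of all genes tested, or 27.3% at the unadjusted p. Insig1, which holds back cholesterol synthesis, had 35.04, 32.1 and 32.5 CPM against 32.6, 32.2 and 32.8 CPM at day 1 and 145, 147 and 155 CPM against 85.5, 85.4 and 86.3 CPM at day 3, and its groups overlapped only at day 1 (interaction -0.77, SE 0.0905). Dhcr7 (-0.56), which catalyses the last step of cholesterol synthesis, was also called.

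**Figure D5:**
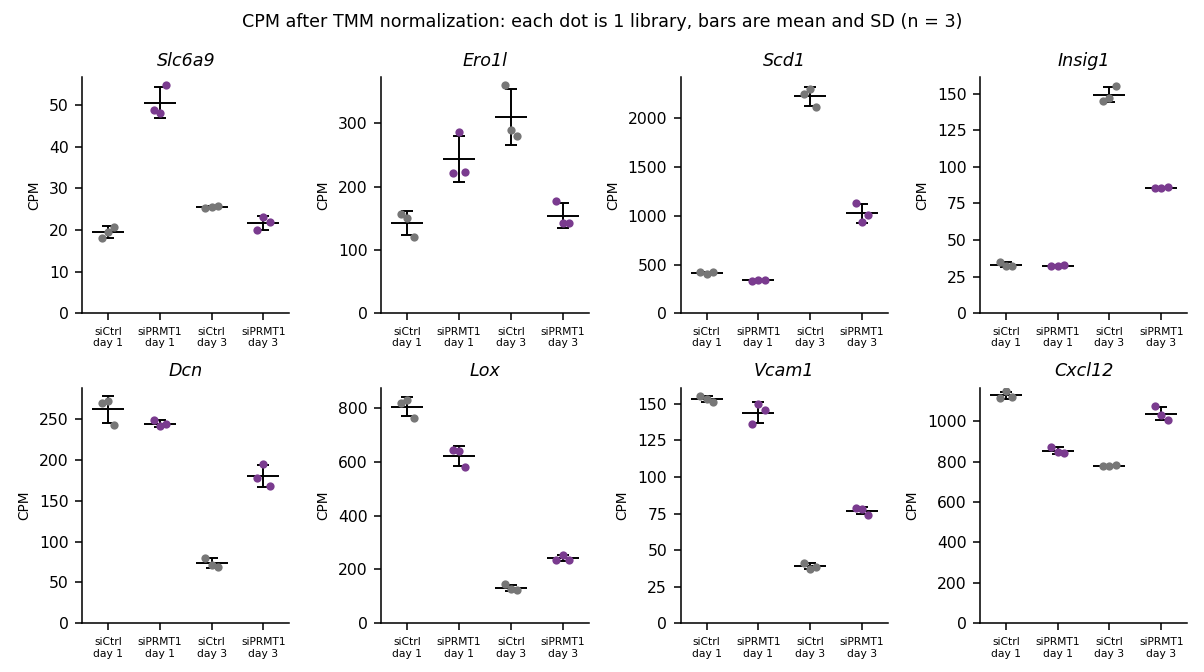
CPM after TMM normalization (vertical axis, from 0) of 8 interaction-called genes of different lists and roles, for siCtrl (grey) and siPRMT1 (purple) at day 1 and day 3; each dot is 1 library and the bars are the mean and SD of 3. Slc6a9 differed most at day 1, Dcn, Insig1 and Vcam1 at day 3, and Cxcl12 exchanged its order, from 840 to 874 CPM in siPRMT1 against 1116 to 1147 CPM in siCtrl libraries at day 1 to 1007 to 1072 against 776 to 781 CPM at day 3.

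Few genes of the cell cycle were called for a difference between the days. Beside 8.24% of all genes tested, the interaction was called in 2.7% of replication and G1/S genes and 0% of mitosis genes. The share was 25.9% of p53 targets, 12.5% of Wnt targets and ligands and 19% of glucocorticoid-induced genes. For cAMP-induced and immediate early genes it was 7.69%, under that of all genes. For the unfolded protein response it was 13.6%, for clock genes 17.6%, for chemokines and cytokines 29.2% and for fatty acid oxidation 12%. Of 36 mitosis genes, 0 were called by edgeR or by DESeq2, with interactions of -0.33 to 0.47. At an unadjusted p under 0.05 in edgeR there were 9, 7 of them positive. This is near the 27.3% of all genes tested that reached this p. Of 37 genes of DNA replication and G1/S only E2f2 was called (-0.88), and at the unadjusted p 5 were positive and 4 negative. With the offsets, 2 genes of replication and G1/S were negative and 0 mitosis genes were called. The p53 targets divided, with 3 positive, such as the death receptor Fas (1.09), and 4 negative, such as the kinase Plk3 (-1.21), and 3 and 4 with the offsets. Of 16 Wnt targets and ligands, 2 were positive, Sfrp2 (1.07) and Wnt6 (1.22), as many as with the offsets. Of 21 glucocorticoid-induced genes, 1 was positive, Timp4 (1.24), and 3 negative, Per1 (-0.61), Lcn2 (-0.52) and Mt2 (-0.52), and 1 and 0 with the offsets. The cAMP-induced and immediate early genes had 2 negative calls of 26, Fosl1 (-2.14) and Atf3 (-1.08, a call lost without any of 7 libraries), and with the offsets 1 positive and 3 negative. Fosl1, an AP-1 subunit, was at 18.4, 22.8 and 27.9 CPM against 35.3, 35.2 and 47.9 CPM at day 1 and at 52.5, 61.0 and 39.4 CPM against 17.8, 19.1 and 22.6 CPM at day 3, so that its groups exchanged order without overlap. The unfolded protein response had 3 negative calls of 22, Herpud1 (-1.10), Ddit3 and Syvn1 (-0.57), and with the offsets 2 were negative. Its chaperone genes Hspa5 (0.34) and Hsp90b1 (0.47) were not called. The lists share some members: Ddit3 and Atf3 are on the ATF4 list too, and their calls are counted in both places. Ciart (-1.68) and Bhlhe40 (-0.84) of 17 clock genes were called beside Per1, and 0 were positive. With the offsets, 2 clock genes were positive and 4 negative, and the call of Per1 was lost (-0.44). Of 24 chemokines and cytokines 4 were positive, such as Il33 (1.74) and Cxcl12 (0.81), and 3 negative, such as Il11 (-1.47), and 5 and 4 with the offsets. Of 25 fatty acid oxidation genes, 2 were positive, such as Acaa2 (0.56), and 1, Acot2 (-1.01), negative, and 2 and 1 with the offsets.

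Some of the genes with large interactions had low levels. Fam135b (2.81) was at 2.38 to 3.17 CPM in all libraries of day 1 and fell to 0.0488 to 0.199 CPM in siCtrl and 0.458 to 0.875 CPM in siPRMT1 libraries at day 3. A count of 0 allows 3 counts, which is 0.0708 to 0.198 CPM by library, so the siCtrl level at day 3 was near what the depth can show. Hcar2, a receptor for hydroxy fatty acids, was at 0.0484 to 0.221 CPM in all libraries of day 1, near that limit too, and at 10.01, 10.55 and 10.06 CPM against 2.7, 2.02 and 3.02 CPM at day 3. Its interaction of -2.92 (SE 0.657) thus rests on few counts at day 1, and its call was lost without siPRMT1 replicate 2 at day 1. Dusp9 (-2.46, SE 0.379), a phosphatase of MAP kinases, was likewise at 0.0982 to 0.347 CPM in siCtrl libraries at day 1, against 0.646 to 0.807 CPM in siPRMT1 libraries, and at 13.8 to 16.2 against 7.87 to 9.42 CPM at day 3. Kera (2.27), another small proteoglycan, fell from 7.75 to 8.98 CPM at day 1 to 1.7 to 2.25 CPM at day 3 in siCtrl libraries and lay between 2.91 and 4.14 CPM in siPRMT1 libraries of both days.

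The genes named among those that kept the sign of the effect were each called for knockdown at 1 day. Plac8 was at 67.0, 65.4 and 74.1 CPM against 73.2, 65.97 and 72.8 CPM at day 1, and at 19.15, 21.16 and 21.99 CPM against 38.3, 41.2 and 40.0 CPM at day 3. Its groups overlapped at day 1 and were apart at day 3 (interaction 0.90, SE 0.114, adjusted p = 1.67e-04, edgeR). Atp1b1 (0.61), a sodium pump subunit, and Nrg1 (0.69), an ErbB ligand, were likewise higher at day 3. Bcat1, which breaks down branched-chain amino acids, was at 43.5, 41.6 and 46.7 CPM against 89.2, 91.9 and 97.9 CPM at day 1 and at 22.5, 27.0 and 22.2 CPM against 26.1, 28.6 and 29.9 CPM at day 3. It was raised at day 1, and its groups overlapped at day 3 (interaction -0.84). Tnfrsf21, a death receptor, was at 85.8, 82.6 and 103 CPM against 35.4, 29.7 and 31.7 CPM at day 1 and at 27.6, 30.6 and 27.3 CPM against 22.6, 24.7 and 26.0 CPM at day 3. It was lower at day 1 (-1.49), and the lower level at day 3 (-0.22) did not pass, which gave an interaction of 1.27 (SE 0.143, adjusted p = 6.47e-05, edgeR). Of the genes that changed sign, Gramd1b, which moves cholesterol between membranes, rose from 12.4 to 13.7 CPM to 152 to 160 CPM in siCtrl libraries and from 15.8 to 16.2 CPM to 74.0 to 81.0 CPM in siPRMT1 libraries, an interaction of -1.33 (SE 0.101).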

How the data were processed

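RNA was sequenced in 12 libraries of 3T3-L1 cells. Reads were trimmed (cutadapt 1.11) and aligned to mouse reference transcripts (HISAT2 2.1.0) by the authors, and the submitters' processing notes also name RSEM 1.2.6 and the mm10 build. The deposited counts are whole reads per gene without normalization, and the deposited FPKM were made by the authors from them (recomputed values differed by at most 0.005). The counting tool, strand setting and treatment of reads on several genes are not given in the sources used here. Names with a number suffix (2266 in the table, 0.612% of the counts) were kept as separate genes.

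The counts were fitted with edgeR 4.0.16 (quasi-likelihood test, TMM, filterByExpr with a minimum count of 10) in R 4.3.3, with 1 mean per group and all 12 libraries in 1 model, so that the interaction equals the difference of the 2 effects. P-values were adjusted by the Benjamini-Hochberg method over 14612 genes, and calls also needed an absolute log2 value over 0.5. SE is the absolute log2 value over the square root of F. Levels are CPM after TMM. FPKM served only for the levels of marker genes. The interaction, both effects and both courses share libraries. Genes named are Prmt1 and 5 genes the study names and, among genes called for the interaction without a number suffix, in each sign class the 4 with the smallest interaction p, the 4 largest in each direction, 8 called at both days in opposite directions and up to 2 per list, at a mean of at least 1 CPM. Other list members are given where a list is described. Results of some genes that this rule or the lists hold are not reported here. The members, the 24 lists written by hand and the motifs were chosen with earlier results of these data known. No 2 libraries were alike: the chi-square per gene between replicates was 4.14 to 50.6 over genes with at least 50 counts. The highest values, 50.6 and 30.8, were those of siCtrl replicate 3 at day 1 against replicates 1 and 2. The next highest was 15.8, between siPRMT1 replicates 1 and 3 at day 3. Counting error and the limit for a count of 0 cover counting alone. The method was tested on simulated data. Alternatives were DESeq2 1.42.0, RLE, other filters, no threshold on the fold, the replicate number as a block, limma 3.58.1 with voom and library weights, each library left out, and each day alone; offsets for GC content and length, and the same genes without them, were added after seeing the data. GC content came from GENCODE transcripts and promoters from RefSeq, both on GRCm38.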

Additional observations from a re-analysis of the deposited data

Results flagged for a closer look

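The knockdown effect differed between day 1 and day 3, by edgeR's test of the interaction, in 697 genes toward more positive and in 507 genes toward more negative values at day 3. The 8 genes with the smallest p among those called at both days in opposite directions differed by -2.50 (Trib3), -1.88 (Chac1), 1.40 (C1s1), 1.70 (Serpina3g), -1.92 (Apln), 2.28 (Nov), 1.65 (Lum) and -1.18 (Pfkfb3) on the log2 scale. In each of the 8 the 3 siPRMT1 libraries lay beyond all 3 siCtrl libraries at both days, on opposite sides, as in 868 (5.94%) of all genes tested. The 8 were picked for opposite calls in the same libraries, so this describes them and tests nothing. Groups of 3 libraries were too small for a search for single outlying values.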

How the results depend on the processing

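No gene named by the rule reversed the direction of its interaction under any alternative run that tested it. The directions of other genes were not followed there. DESeq2 called 1200 genes for the interaction, of which 1109 were shared. Without a threshold on the fold, 1123 genes were more positive at day 3, day 1 had 647 higher and 1183 lower genes, and day 3 had 767 higher and 981 lower. With at least 10 counts in every library, 318 genes were lower at day 3. With library weights, 884 genes were more negative at day 3 and 545 higher at day 1. With each library left out in turn, the counts were 504 to 902 more positive and 305 to 1005 more negative, at day 1 231 to 496 higher and 265 to 363 lower, and at day 3 249 to 405 higher and 348 to 585 lower. The highest of each of these 6 ranges came without siCtrl replicate 3 at day 1, and the negative count also moved by over 1.5 times without siPRMT1 replicate 3 at day 1 (305) and without siCtrl replicate 2 at day 3 (310). The list counts ranged over 21 to 30 (ATF4), 9 to 12 (glycolysis), 14 to 17 (matrix) and 9 to 12 (adhesion). The cause of these moves was not tested.

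Among named genes, calls of Cd68, Atf3, Mt2, Hcar2, Acaa2 and Per1 were lost under 1 or more alternatives. Cd68 kept its call when siCtrl replicate 3 at day 1 was left out and lost it without each other library, without the filter, with the block, in DESeq2 and with the GC and length offsets. Atf3 lost it without siCtrl replicate 2 or siPRMT1 replicate 1 or 2 at day 1, and without siCtrl replicate 3 or any siPRMT1 replicate at day 3 (-1.15 to -0.82). Mt2 lost it without siCtrl replicate 1 or siPRMT1 replicate 3 at day 1, without replicate 2 of either group at day 3, without the filter and with the offsets (-0.32). Hcar2 lost it without siPRMT1 replicate 2 at day 1 (-2.44, adjusted p = 0.0748 in edgeR), Acaa2 without siCtrl replicate 3 at day 1 (0.47) and Per1 with the offsets (-0.44). Whether the replicate numbers pair the libraries was not settled. Of 18 pairs of same-numbered libraries the correlation of deviations was -0.169 to 0.216, and 6 were over 0.1. Differently numbered libraries were not compared in this way. With the number as a replicate block, 1277 genes were called for the interaction, 1168 of them shared. Depth limits what can be said of genes under about 1 CPM, such as Hcar2 at day 1.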
